A study of Mus musculus with 6 samples.

Results

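miR-146a-5p and miR-146b-5p (mmu-miR-146a-5p and mmu-miR-146b-5p on the arrays) are mature microRNAs of the same family, made from hairpins on different chromosomes. They are 2 of the 1247 mouse miRNAs on the arrays of this study, found by their names in the scanner files among the spots that are not controls. They were chosen because their signals differ in opposite directions between the study's populations, so their values in P4 and P5 are given as a description, with no test of that contrast.

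A miRNA guides Argonaute proteins to mRNAs that pair with its seed, bases 2 to 8 from its 5′ end, and miRNAs that share a seed are expected to share many targets. Both miRNAs are known to repress Traf6 and Irak1, an adaptor and a kinase that carry signals from Toll-like and interleukin-1 receptors to NF-κB. The miR-146a gene is known to be induced by NF-κB, which makes miR-146a part of a negative feedback loop. miR-146a is best known from leukocytes, and miR-146b has been linked to the upkeep of alveolar progenitor cells in the mouse mammary gland.

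The cells were sorted from mammary glands of virgin wild-type mice of the FVB/N-J strain after mechanical and enzymatic dissociation. P4, the lineage-negative CD24+ cells with high CD29 (integrin beta 1), is enriched for mammary stem cells and by this gate also holds basal, myoepithelial cells. P5, the lineage-negative CD24+ cells with low CD29, is labelled as enriched for luminal cells in one field and for luminal progenitors in another. Each population had 3 single-colour (Cy3) miRNA arrays, and the labels do not say whether these came from separate animals or sorts, so the spread between them may be technical. The labels do not give the age of the mice.

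The sequences show what the family members share and where they part, since the arrays have to tell them apart. All 4 mature names of both hairpins were matched by name in RefSeq's table for build GRCm38.p6. The seed is in capitals in the mature sequences, written 5′ to 3′.
miR-146a-5p: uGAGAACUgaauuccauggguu
miR-146b-5p: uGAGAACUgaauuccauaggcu
miR-146a-3p: cCUGUGAAauucaguucuucag
miR-146b-3p: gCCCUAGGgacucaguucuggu
The 5p arms were the same at 20 of 22 positions, including the first 17. The substitutions from miR-146a-5p to miR-146b-5p, counted from 1 at the 5′ end, were G18A and U21C. Of 1679 mature names in the table, these 2 alone had this seed. The 3p arms matched at 4 of 22 positions when lined up at their 5′ ends, and their seeds differed from each other.

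The hairpins place the shared stretch in different surroundings. In them the 5p arm is in capitals.
Mir146 hairpin: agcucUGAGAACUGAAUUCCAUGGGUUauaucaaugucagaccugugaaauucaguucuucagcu
Mir146b hairpin: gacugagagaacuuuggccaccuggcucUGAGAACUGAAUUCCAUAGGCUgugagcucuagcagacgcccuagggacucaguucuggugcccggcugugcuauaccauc
The Mir146 hairpin, of 65 bases, lies at chr11:43374397-43374461 on the minus strand, with miR-146a-5p at 43374435 to 43374456. No other gene of the RefSeq table overlapped it, and its neighbours among protein-coding genes were Atp10b and Pttg1. The Mir146b hairpin, of 109 bases, lies at chr19:46342762-46342870 on the plus strand, with miR-146b-5p at 46342790 to 46342811. It lay within the span of the long noncoding RNA gene Gm36493, between Cuedc2 and Mfsd13a. Nfkb2, which encodes a subunit of NF-κB, was the fourth protein-coding gene on the Cuedc2 side.

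The P4 arrays detected 325 to 384 miRNAs and the P5 arrays 367 to 419. All arrays lay on 1 slide, with the P4 arrays and P5 replicate 1 in its first row. Each array was divided by its scaling signal, the 75th percentile over miRNAs detected on all 6 arrays, which was 186 to 382 intensity units in P4 and 315 to 526 in P5. Levels below are log2 of this scaled signal unless called unscaled, and values under a floor of -5.49 were set to it. Of the cell type markers, miR-143-3p and miR-145a-5p of contractile cells and miR-205-5p of basal epithelium were higher in P4, and miR-148a-3p of luminal epithelium was lower, with limma adjusted p from 8.05e-06 to 0.000298. The luminal marker miR-375-3p was detected on no array. Markers of the other cell types are given below. With 3 arrays in each population, the precision of all values is limited by that number.

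miR-146a-5p was a dim signal that lay higher in P4. Its levels were -3.16, -2.92 and -3.24 on P4 replicates 1, 2 and 3, against -5.01, -4.92 and -5.49 on the P5 arrays, where the last was at the floor. Every P4 array lay above every P5 array, and the P4 arrays lay closer together. The means were -3.11 ± 0.17 in P4 and -5.14 ± 0.31 in P5 (SD, n = 3 each), a log2 difference of 2.03 or 4.09-fold. miR-146a-5p was detected on all P4 arrays and on P5 replicates 1 and 2, not on P5 replicate 3, which enters this mean at the floor. The size of the difference is therefore uncertain, and without that array it was 1.85. In bulk samples such as these, fewer cells that express a miRNA and less of it per cell cannot be told apart.

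Before scaling, the miR-146a-5p signal was 20.8, 50.5 and 28.9 intensity units in P4, against 16.4, 15.1 and 6.77 in P5. The groups still did not overlap, but the lowest P4 array was only 1.27 times the highest P5 array, and P4 replicate 2 lay far above the other P4 arrays. The log2 difference was 1.35 with no scaling, so dividing by the scaling signals, which were mostly higher in P5, widened it.

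miR-146b-5p was the brighter signal and lay lower in P4. Its levels were 0.71, 0.75 and 0.21 in P4, against 2.32, 1.60 and 1.89 in P5. Every P4 array lay below every P5 array, with P4 replicate 3 lowest and P5 replicate 1 highest. The means were 0.56 ± 0.30 in P4 and 1.94 ± 0.36 in P5 (SD, n = 3 each), a log2 difference of -1.38, which is 2.61-fold higher in P5. Before scaling the signal was 305, 643 and 316 intensity units in P4, against 2636, 1391 and 1167 in P5. The lowest P5 array was 1.82 times the highest P4 array there, so the populations were apart without any scaling. miR-146b-5p was detected on all 6 arrays.

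**Figure D1:**
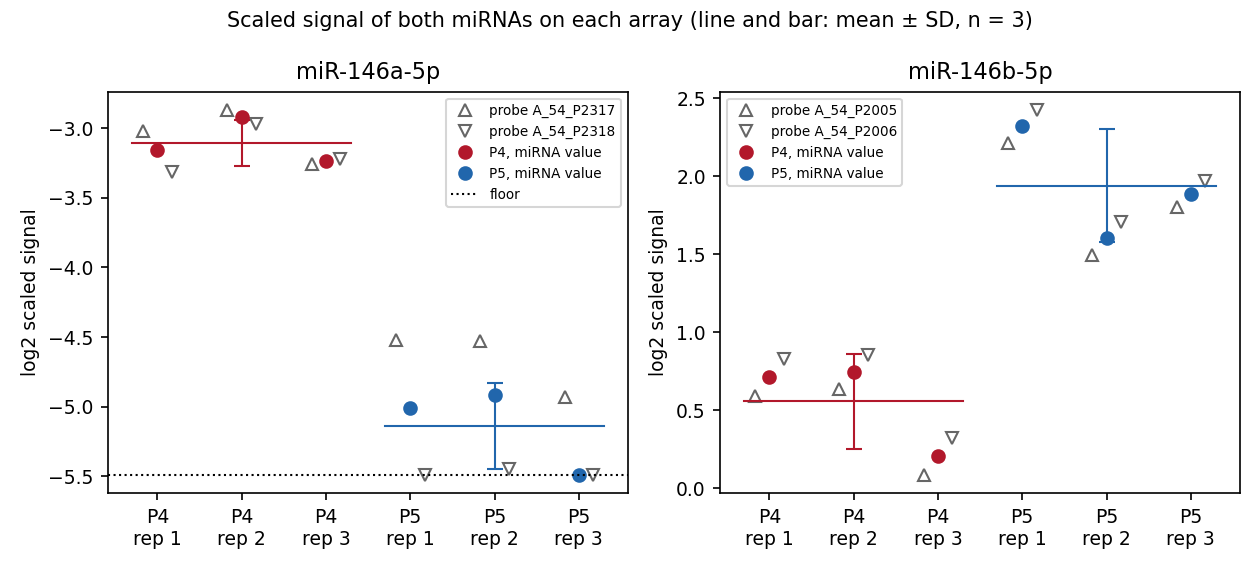
Log2 scaled signal of miR-146a-5p (left) and miR-146b-5p (right) on each array, with each miRNA's value as a filled point, its probes as open triangles and the mean ± SD of each population (n = 3) as a line and bar. miR-146a-5p lies between -3.24 and -2.92 in P4 and at or below -4.92 in P5, while miR-146b-5p lies between 0.21 and 0.75 in P4 and between 1.60 and 2.32 in P5.

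Neither miRNA is alone in having populations that do not overlap. Among the 370 miRNAs detected on all 3 arrays of at least 1 population, 156 or 42.2% showed no overlap, so this count over 2 members chosen for their difference shows nothing particular to them. In the limma fit across the same miRNAs, 103 or 27.8% passed an adjusted p of 0.05, with 51 higher (13.8%) and 52 lower (14.1%) in P4. This split depended on the scaling and background, and was 47 higher and 77 lower when scaled over all miRNAs, 23 and 77 with no scaling, 52 and 74 with quantile normalization, 55 and 25 with normexp and 31 and 81 with the authors' processed values. Over these miRNAs the median log2 difference was 0.0013 as reported, and -0.17, -0.64, -0.13, 0.29 and -0.43 under these settings in turn, so each difference here is relative to the other miRNAs.

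Only P5 replicate 1 shared the first row of the slide with the P4 arrays. Against that array alone, which is also the value of a fit with a term for the slide row, miR-146a-5p differed by 1.90 and miR-146b-5p by -1.77. The directions were those of all 6 arrays, which had to be so for populations that do not overlap. miR-146b-5p differed by more, as P5 replicate 1 was its highest P5 array. The second row held P5 arrays only and gives no comparison.

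Each miRNA was read by a pair of probes, each printed in 20 spots. The probes of miR-146b-5p ran in parallel. A_54_P2005 read 280, 594 and 290 intensity units in P4, against 2447, 1290 and 1099 in P5. A_54_P2006 read 330, 691 and 342 in P4, against 2825, 1492 and 1235 in P5. The signal of A_54_P2006 over that of A_54_P2005 was thus nearly constant, at 1.18, 1.16 and 1.18 in P4 and 1.15, 1.16 and 1.12 in P5. The scaled log2 difference was -1.40 for A_54_P2005 and -1.37 for A_54_P2006.

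The probes of miR-146a-5p gave close readings in P4 and different ones in P5. A_54_P2317 read 22.9, 52.3 and 28.6 intensity units in P4, against 23.0, 19.8 and 10.3 in P5. A_54_P2318 read 18.7, 48.8 and 29.3 in P4, against 9.75, 10.5 and 3.20 in P5. For A_54_P2317 the unscaled populations overlapped, since P4 replicate 1 read as low as P5 replicate 1, and for A_54_P2318 they did not. After scaling neither probe's populations overlapped, and the log2 differences were 1.61 for A_54_P2317 and 2.31 for A_54_P2318. Of the 20 spots of A_54_P2318, 1, 0 and 0 were well above background on the P5 arrays, and of those of A_54_P2317, 11, 7 and 0 were. A_54_P2318 lay at the floor on P5 replicates 1 and 3, and with no floor its difference was 2.77. Both of its differences are set against readings at or near background, so their size is not settled.

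The direction of the scaled miR-146a-5p difference was the same with both probes. The signal of A_54_P2318 over that of A_54_P2317 was 0.816, 0.934 and 1.03 in P4, against 0.425, 0.530 and 0.310 in P5, with no overlap. The excess of A_54_P2317 over A_54_P2318 was 4.23, 3.43 and -0.760 intensity units in P4, against 13.2, 9.31 and 7.14 in P5. It was largest on P5 replicate 1, the array where miR-146b-5p was brightest. Over these arrays the miR-146b-5p signal was 305, 643 and 316 units in P4, against 2636, 1391 and 1167 in P5. Whether any signal of one miRNA was read by the probes of the other, whose targets are the same over 17 bases from the 5′ end, was not tested.

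Single spots show how near to the background these readings were. Of the 40 spots of miR-146a-5p, 27, 40 and 40 were well above background on P4 replicates 1, 2 and 3, against 12, 7 and 0 on the P5 arrays. All 40 spots of miR-146b-5p were well above background on every array. Between spots of 1 probe the coefficient of variation was 2.83% to 9.28% for miR-146b-5p. For miR-146a-5p it was 7.31% to 25.5% in P4 and 17.9% to 92.4% in P5. The P5 level of miR-146a-5p is thus the least certain value of the pair.

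**Figure D2:**
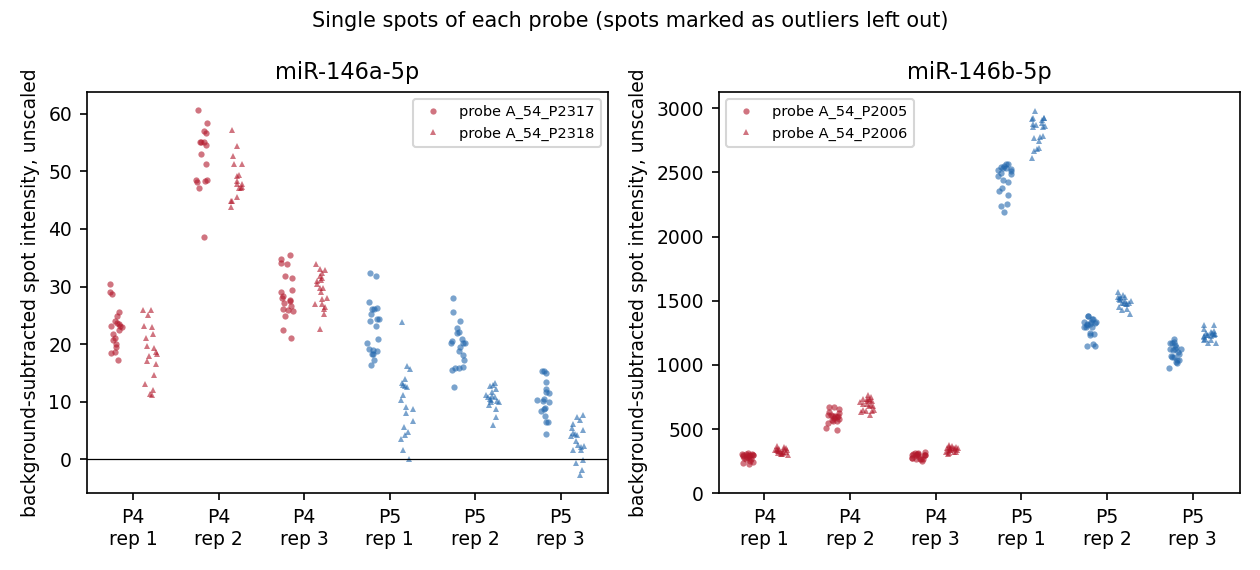
Background-subtracted, unscaled intensity of each spot of the probes for miR-146a-5p (left) and miR-146b-5p (right) on each array, with P4 in red and P5 in blue. The second miR-146a-5p probe averages 3.20 to 10.5 units in P5, below the first at 10.3 to 23.0, while the miR-146b-5p probes stay in step on all arrays.

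The passenger arms gave no detected signal. miR-146a-3p and miR-146b-3p were each detected on 0 of 6 arrays. The probe means of miR-146a-3p ran from -3.94 to 3.12 intensity units over its 2 probes, and those of miR-146b-3p from -6.33 to 0.786 over its 4 probes. Of 240 spots each, 2 for miR-146a-3p were well above background. Both lay on P4 replicate 3, 1 on each probe, and both carried an outlier mark and were left out. For miR-146b-3p the number was 0. At this signal the arrays give no comparison of the 3p arms between P4 and P5.

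The relation between the members was followed within each array, where the scaling cancels except for a value set to the floor. The log2 ratio of the miR-146a-5p signal to the miR-146b-5p signal was -3.87, -3.67 and -3.45 in P4, against -7.33, -6.52 and -7.38 in P5. The lowest P4 array lay far above the highest P5 array. The means were -3.66 ± 0.21 in P4 and -7.08 ± 0.48 in P5 (SD, n = 3 each), a log2 difference of 3.41 or 10.7-fold. This size carries the same uncertainty, since P5 replicate 3, with 0 of 40 miR-146a-5p spots well above background, enters it at the floor, and without that array it was 3.26. Put as a percentage, the whole miR-146a-5p signal came to 6.83%, 7.86% and 9.16% of the miR-146b-5p signal in P4, against 0.621%, 1.09% and 0.580% in P5. The lowest P4 percentage was 6.27 times the highest of P5. Probes differ in brightness per molecule, so a percentage in 1 population is not a ratio of molecules, and only its change between populations is read here.

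Summed over both members, the signal followed miR-146b-5p. The summed scaled signal was 1.75, 1.81 and 1.26 times the scaling signal in P4, against 5.04, 3.07 and 3.73 in P5. On the log2 scale the means were 0.67 ± 0.29 in P4 and 1.95 ± 0.36 in P5 (SD, n = 3 each), with no overlap. The log2 difference was -1.28, which is 2.43-fold higher in P5, against -1.38 for miR-146b-5p alone. miR-146a-5p made up 6.39%, 7.29% and 8.39% of the unscaled sum in P4, against 0.617%, 1.08% and 0.577% in P5. The sum treats the probes of both miRNAs as equally bright per molecule, which these arrays do not show.

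**Figure D3:**
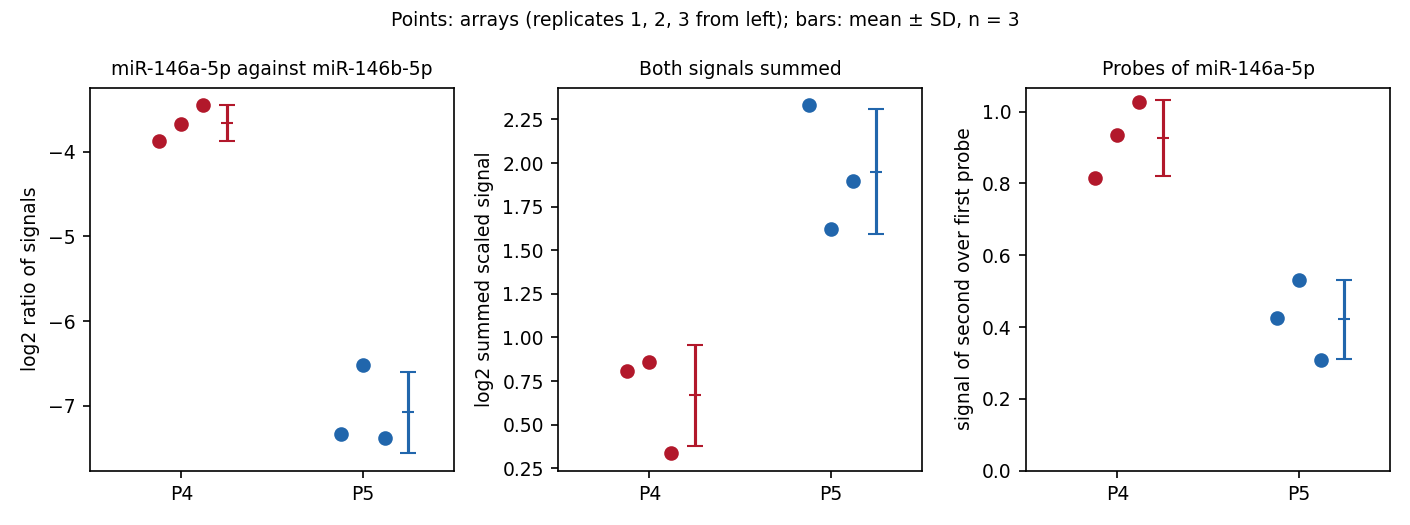
Log2 ratio of the miR-146a-5p to the miR-146b-5p signal (left), log2 of their summed scaled signal (middle), and the signal of A_54_P2318 over A_54_P2317 for miR-146a-5p (right), with a point for each array and bars for the mean ± SD (n = 3). In each panel the P4 and P5 points do not overlap, and the ratio averages -3.66 in P4 and -7.08 in P5.

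The miR-146a-5p difference varied more between processing settings than that of miR-146b-5p. With normexp, a setting that changed several choices together (median spot signals, an added 50 units and no floor), miR-146a-5p differed by 0.85 and miR-146b-5p by -1.32. Agilent's summed signal per miRNA was 16.2, 39.0 and 22.1 units for miR-146a-5p in P4, against 8.81, 7.62 and 0.1 in P5, where the last is the value this column holds for an undetected miRNA. From that column the difference was 4.33. It was 4.00 in the authors' processed values, which rest on the same column. Both values include the 0.1 of P5 replicate 3, and the cause of the variation was not tested. miR-146b-5p differed by -1.38 and -1.71 under the same settings. All these settings kept miR-146a-5p higher and miR-146b-5p lower in P4.

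**Figure D4:**
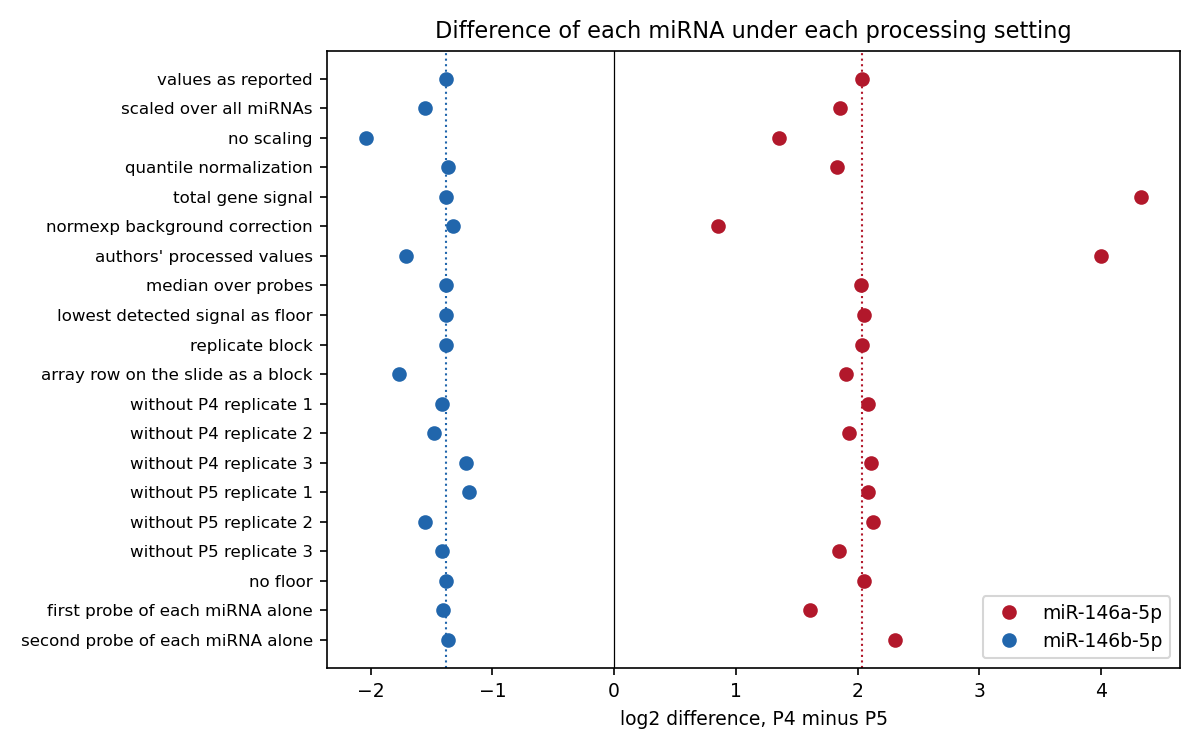
Log2 difference, P4 minus P5, of miR-146a-5p (red) and miR-146b-5p (blue) under each processing setting, with dotted lines at the values reported. miR-146a-5p lies between 0.85 and 4.33 and miR-146b-5p between -2.04 and -1.19, and neither crosses 0.

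The miRNAs with profiles most like each member, by the root mean square distance of profiles centred on their own mean over 6 arrays, were found among 368 others. This distance is a description and is mostly set by the difference between the populations. For miR-146a-5p they were miR-218-5p (0.31), miR-350-3p (0.31) and miR-221-3p (0.33). The nearest, miR-218-5p, was at -3.10, -2.89 and -2.94 in P4 and at the floor on all P5 arrays. For miR-146b-5p they were miR-200a-3p (0.18), miR-193b-3p (0.20) and miR-200b-3p (0.20). miR-200a-3p, of a family known for its role in keeping cells epithelial, was at 2.01, 1.87 and 1.36 in P4, against 3.02, 2.66 and 3.05 in P5. miR-193b-3p was at -2.74, -2.92 and -3.45 in P4, against -1.67, -1.82 and -1.96 in P5. All 3 of these lay lowest on P4 replicate 3, as miR-146b-5p did, but choosing the nearest profiles favours such a match.

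Other miRNAs linked to NF-κB signalling were followed for comparison. Of 12 on a fixed list of miRNAs that are induced by this pathway or act on its components, 9 could be tested, and 2 were higher and 0 lower in P4. Their median log2 difference was 0.47, against 0.0013 for all tested miRNAs. Its sign depended on the scaling. The median of the 9 was -0.18 with no scaling and -0.08 in the authors' processed values, against -0.64 and -0.43 for all tested miRNAs. Among all tested miRNAs 27.8% passed, 13.8% as higher and 14.1% as lower. The number of passing list members was 4 with quantile normalization and 4 with normexp, where 126 and 80 of all 370 miRNAs passed. Under both settings miR-21a-5p was among the 4 and was lower in P4. miR-125b-5p, known to act on Tnf mRNA in mouse macrophages, was at 4.04, 3.73 and 3.66 in P4, against 0.41, 0.026 and 0.28 in P5. It was 11.9-fold higher in P4 (log2 difference 3.57 ± 0.18, SE, adjusted p = 8.05e-06). miR-301a-3p, known from human cells to repress the NF-κB inhibitor NKRF, was at -1.38, -1.20 and -1.50 in P4, against -2.51, -2.23 and -2.46 in P5. It differed by 1.04 ± 0.16 (adjusted p = 0.00242), and with no scaling did not pass (0.39, adjusted p = 0.451).

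The other tested members of that list did not pass the threshold. Of these, miR-21a-5p, an abundant miRNA known to rise in inflammation, had the highest signal, with a difference of -0.75 ± 0.30 (adjusted p = 0.111). It passed as lower in P4 when scaled over all miRNAs (-0.92), with no scaling (-1.40), with quantile normalization (-0.97), with normexp (-0.83) and without P5 replicate 2 (-1.01). Without P5 replicate 3, its highest array, it differed by -0.42 (adjusted p = 0.117). let-7i-5p, known from human cells to act on TLR4, differed by 0.25 ± 0.14, miR-212-3p by 0.078 ± 0.17, and miR-125a-5p, a close relative of miR-125b, by 0.50 ± 0.22. The adjusted p was 0.208, 0.744 and 0.138. miR-125a-5p passed with quantile normalization (0.60), and miR-181b-5p (-0.29 ± 0.14) passed with the authors' processed values (-0.62). miR-9-5p, miR-132-3p and miR-147-3p were detected on no array. miR-223-3p and miR-155-5p, tested members of this list too, are given with the leukocyte markers below.

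The miRNAs on the list of leukocyte markers were detected in both populations, and 2 of 6 passed as higher in P4. How much of their signal came from leukocytes was not tested. The lineage-negative gate of both populations is meant to remove blood and endothelial cells. All 6 markers were detected on all 6 arrays, so none was at 0. Their summed scaled signal was 1.10 to 3.60 in P4 and 0.748 to 1.04 in P5. By the fit 2 of the 6 were higher in P4 and 0 lower, with a median difference of 0.87, beside 13.8% higher and 14.1% lower among all tested miRNAs. miR-150-5p, a miRNA of mature lymphocytes, was at -2.38, -2.00 and -0.79 in P4, against -4.05, -3.75 and -3.98 in P5 (difference 2.20 ± 0.39, adjusted p = 0.00449). It did not pass in the fit with a term for the slide row (2.32, adjusted p = 0.066), nor when dim miRNAs were kept in (adjusted p = 0.147). miR-342-3p was higher by 0.83 ± 0.18 (adjusted p = 0.0112), and did not pass with no scaling (0.17, adjusted p = 0.716), the authors' processed values (0.50, adjusted p = 0.0566), no filter (adjusted p = 0.112) or without P4 replicate 1 (0.83, adjusted p = 0.050002).

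The remaining leukocyte markers did not pass. miR-142-3p and miR-142-5p, arms of 1 hairpin of blood cells, differed by 0.91 ± 0.54 and 1.13 ± 0.55 (adjusted p = 0.234 and 0.164). Both passed with normexp (0.82 and 0.88), and miR-142-5p passed without P4 replicate 1 (1.79, adjusted p = 0.0362). Without P4 replicate 3, their highest array, they differed by 0.30 and 0.53 (adjusted p = 0.526 and 0.323). miR-223-3p, of myeloid cells, differed by 0.74 ± 0.23 (adjusted p = 0.0543), and passed with normexp (0.58) and without P5 replicate 3 (0.96). miR-155-5p, of activated leukocytes, differed by 0.47 ± 0.27 (adjusted p = 0.213), and by 0.22 without P4 replicate 3.

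Among the P4 arrays the summed leukocyte signal was 1.10, 1.66 and 3.60 on replicates 1, 2 and 3. The endothelial miR-126 arms summed to 8.09, 9.39 and 20.6 there, against 2.32, 1.92 and 0.767 in P5. By the limma fit both arms passed as higher in P4, beside 13.8% higher among all tested miRNAs. miR-126-3p differed by 2.96 ± 0.50 and miR-126-5p by 2.88 ± 0.50 (SE, adjusted p = 0.00409 and 0.00432). Both sums were highest on P4 replicate 3, where miR-146a-5p was lowest, though its P4 arrays differed by little. Without that array the difference of miR-146a-5p was 2.11, and that of miR-146b-5p was -1.21. The erythroid miR-451a was detected on 2 arrays of each population. The part of these cell types, which the lineage-negative gate is meant to remove, in the P4 level of miR-146a-5p was not tested.

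The miR-200 family members on the list of general epithelial markers were lower in P4. All 4, miR-200a-3p, miR-200b-3p, miR-200c-3p and miR-141-3p, passed, with a median difference of -1.47 (adjusted p from 0.0015 to 0.00685), beside 14.1% lower among all tested miRNAs, a share that moved with the scaling as given above. miR-205-5p of basal epithelium was higher instead (2.88 ± 0.28, adjusted p = 0.000298). Their summed scaled signal was 10.2, 9.59 and 6.33 in P4, against 23.0, 19.0 and 24.2 in P5. Its lowest array was P4 replicate 3, as for miR-146b-5p. This sum holds miR-200a-3p and miR-200b-3p, which were among the profiles picked above as nearest to miR-146b-5p. The share of epithelial cells on each array was not measured, and its part in the miR-146b-5p difference was not tested.

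**Figure D5:**
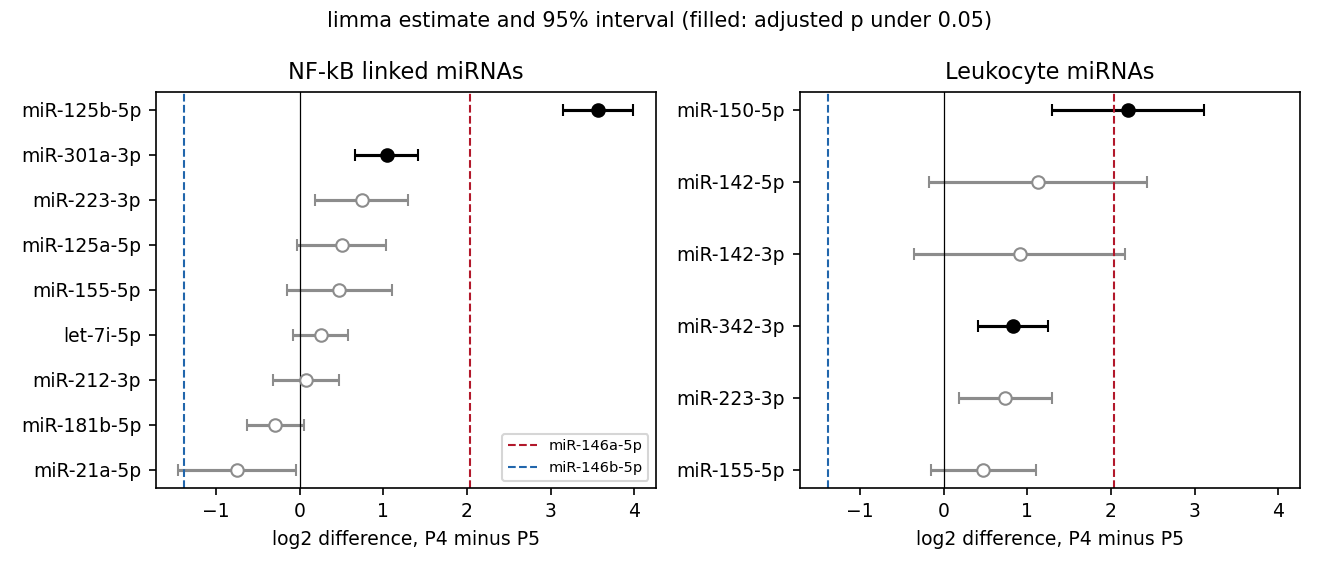
Log2 differences, P4 minus P5, with 95% intervals from limma for the tested NF-κB linked (left) and leukocyte (right) miRNAs, filled where the adjusted p was under 0.05. Dashed lines mark the differences of miR-146a-5p (2.03) and miR-146b-5p (-1.38) without an interval, since both were chosen on this contrast; only miR-125b-5p and miR-150-5p lie to the right of miR-146a-5p, and no list member lies to the left of miR-146b-5p.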

How the data were processed

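Total RNA enriched for miRNA was extracted from the sorted cells and labelled with Cy3, per the labels' protocols, and read on Agilent arrays. In the deposited scanner files, spots have a linear intensity that is background-subtracted and not scaled between arrays; per the file headers, the software was Agilent Feature Extraction 11.0.1.1 (11.0 in the submitters' processing notes). The series matrix deposited by the authors is in log2. To within 7.86e-06, each of its columns was log2 of Agilent's summed signal with a constant added for the array and another for the row. Its scale and direction are thus known, its centring is not. Its column medians were 0.42, -0.36 and -0.06 in P4 and -0.56, -0.47 and 0.06 in P5.

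Control spots and spots with outlier marks were left out. No spot was saturated. Signal was averaged per probe, then per miRNA, divided by the 75th percentile over commonly detected miRNAs, floored and put on a log2 scale. The floor, 0.0223 of the scaling signal, was the 95th percentile of undetected signal in an array, taken as the median of all arrays. Detection and "well above background" are Agilent's flags. limma 3.58.1 in R 4.3.3 (lmFit, eBayes, 2-sided, Benjamini-Hochberg over 370 miRNAs, threshold 0.05) gave all p-values. The fit was also run on simulated independent normal values. These had no floor, no array effects and no relation between miRNAs, so that run does not cover such features of the data. normexp used median spot and median background signals with an offset of 50, and no floor.

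Members, lists and alternatives were chosen with earlier results of these data known. Named miRNAs were the members and their 3p arms, all called and the 4 brightest uncalled miRNAs of the NF-κB list, the leukocyte markers, and the 3 nearest profiles per member. miR-181b-5p, the undetected list members and other markers were named outside this rule, after their values were seen. Sequences are RefSeq's for GRCm38.p6, and the array design is annotated to mm9, per the file headers, so no array coordinate was used.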

Additional observations from a re-analysis of the deposited data

How the results depend on the processing

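Over 19 alternatives miR-146a-5p stayed higher and miR-146b-5p lower in P4, with log2 differences of 0.85 to 4.33 and -2.04 to -1.19. Many of these could hardly reverse a direction, so their number is no measure of support. The populations do not overlap, which all but fixes the sign when an array is left out or the slide row is a term. For a pair of probes the median is the mean, and the floor settings do not reach miR-146b-5p. The ratio of the members stayed between 2.18 and 5.71, and the summed signal (18 alternatives) between -1.94 and -1.09. The summed signal could not be taken from the authors' processed values, whose row constants are unknown. For miR-146a-5p, 2.03 as reported, the values that moved by more than the spread between replicates were 1.35 with no scaling, 4.33 with Agilent's summed signal, 0.85 with normexp, 4.00 in the authors' processed values, and 1.61 and 2.31 with the first and the second probe alone. For miR-146b-5p they were -2.04 with no scaling and -1.77 with the slide row as a term, and for the summed signal -1.94 and -1.67. For the ratio, 3.41 as reported, they were 5.71 both with Agilent's summed signal and in the authors' processed values, 2.18 with normexp and 3.01 with the first probe alone. Under Agilent's summed signal and the authors' values, miR-146a-5p and the ratio include the 0.1 that stands for no detection on P5 replicate 3. The single probes and the setting with no floor were chosen after seeing the data. Leaving out each array in turn gave 1.85 to 2.13 for miR-146a-5p, -1.55 to -1.19 for miR-146b-5p, 3.26 to 3.68 for the ratio, -1.45 to -1.09 for the sum, 85 to 113 called miRNAs and 2 to 3 called on the NF-κB list.

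The count of 103 called miRNAs was 47 with no filter, where 1247 were tested, and 52 with the slide row as a term, which rests on P5 replicate 1 as the only P5 array of its row. The count of 2 on the NF-κB list was 4 with quantile normalization and 4 with normexp. Under these settings 126 and 80 of 370 miRNAs passed, and miR-21a-5p passed as lower in P4. The cause of the change in count was not tested. Deviations of same-numbered arrays from their population means correlated at -0.07, 0.37 and 0.09 over the tested miRNAs, so the numbers were not taken as pairs. With the replicate block the members' differences were 2.03 and -1.38, that of the ratio 3.41 and of the sum -1.28, with 111 called miRNAs and 2 on the NF-κB list. This block, counted among the alternatives above, could not change the differences, since each number holds an array of each population. Only the calls could change with it. P4 replicate 1 correlated best with P5 replicate 3 (0.22), while P4 replicates 2 and 3 correlated best with the P5 array of their own number. Signal over background limits miR-146a-5p in P5, where at most 12 of its 40 spots were well above background on an array.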
